A study of Mus musculus with 36 samples.

Results

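The collagen genes of mouse keratinocytes are described here across WT, PKP4-KO and Rescue cells. They were chosen by name: the protein-coding genes whose symbol reads Col, a number, the letter a and a number, without Col17a1, a transmembrane component of hemidesmosomes. This gave 43 of the 55358 genes in the table. The family was singled out with the difference of Col4a2 between PKP4-KO and WT cells in view, so that the PKP4-KO values of Col4a2 are given as a description without a test. RNA was sequenced from 36 libraries in 12 groups of 3. Each of the 3 cell types was kept in low calcium medium (LCM) or in high calcium medium (HCM), which lets keratinocytes form junctions and differentiate, and was harvested after 24 h or 72 h. WT and PKP4-KO keratinocytes were primary cells from the epidermis of newborn Pkp4+/+ and Pkp4-/- pups of a heterozygous intercross, and the knockout allele, derived from C57BL/6N-Pkp4tm1b(EUCOMM)Wtsi/JMmucd and crossed to C57BL/6J, lacks exon 9. Rescue cells were PKP4-KO cells that overexpressed human PKP4 with an EGFP tag from a lentivirus and had been selected with puromycin. Keratinocytes were cultured on a coat of collagen I protein. The study asked how PKP4, a junction protein, affects gene expression in keratinocytes. Since the Pkp4+/+ and Pkp4-/- cells were taken from separate pups, genotype and animal cannot be told apart.

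Collagens are chains that wind into triple helices inside the endoplasmic reticulum and are then secreted into the extracellular matrix. Fibrillar collagens form the ropes of the dermis and are mainly made by fibroblasts. Basal keratinocytes contribute to the sheet below them, the basement membrane, with its network of type IV collagen, the proteoglycan-like type XVIII collagen and the anchoring fibrils of type VII collagen.

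Library totals ranged from 13602728 to 22467187 counts, with a median of 17353519.5, and collagen genes took 0.00287 to 0.0434% of them. Levels are CPM, the counts of a gene relative to the library total in the usual per-million unit, with totals scaled by TMM, a method that centres the bulk of the genes. The scaling factors were 0.481 to 0.546 in the PKP4-KO cells at 72 h in HCM and 0.705 to 1.39 elsewhere. At the median library total without scaling, a floor of 3 counts equals 0.173 CPM, which covers counting error only. On the scaled totals this floor averaged 0.386 CPM in PKP4-KO at 72 h in HCM and 0.133 to 0.220 CPM in the other groups. The summed level of 11 keratinocyte markers was 27216 to 79988 CPM, and 10 or 11 of them reached 1 CPM in every group. The 10 fibroblast markers summed to 3.84 to 10.6 CPM in PKP4-KO, 21.9 to 34.97 CPM in WT and 22.7 to 43.7 CPM in Rescue libraries. Of these 10, 1 to 3 reached 1 CPM in a group and 0 to 6 had no read in any library of it. The sums were 0.581 to 5.41 CPM for 5 endothelial, 0.155 to 2.03 CPM for 5 melanocyte, 0.987 to 35.6 CPM for 5 muscle and pericyte and 6.78 to 178 CPM for 5 immune markers. At most 2 of the endothelial markers and at most 1 of each of the last 3 lists reached 1 CPM in a group. In bulk RNA, fewer cells of a type and less RNA per cell cannot be told apart. Pkp4 itself averaged 38.6 ± 5.19 to 71.1 ± 4.53 CPM (SD, n = 3) in the WT groups and 7.27 ± 0.936 to 11.3 ± 2.59 CPM in the PKP4-KO groups.

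Every one of the 43 genes had at least 1 read, and 25 passed the filter on low counts and were tested among 15114 genes. The other 18 had at most 11 reads in any library. They were Col6a3, Col19a1, Col11a1, Col5a3, Col8a2, Col4a4, Col25a1, Col14a1, Col28a1, Col6a5, Col9a2, Col24a1, Col4a3, Col9a1, Col6a4, Col10a1, Col6a6 and Col13a1. By class, the filter was passed by 8 of 11 fibrillar collagens, 4 of 6 type IV chains, 1 of 3 short-chain collagens and 2 of 7 type VI and related chains. It was also passed by the anchoring fibril collagen Col7a1, by 5 of 9 fibril-associated collagens (FACIT), 1 of 3 transmembrane collagens, both multiplexins and Col26a1. A gene that passed through the group where it is high had to differ between groups, so that the number that passed carries no evidence of change.

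A mean of 1 CPM or more was found in all 12 groups for 4 genes, Col18a1, Col7a1, Col12a1 and Col8a1. Another 15 genes reached it in some groups, 8 of them in 1 to 3 groups, and 6 in none. Per kilobase of gene model, the mean level over all libraries was 14.1 CPM per kb for Col18a1, 2.58 for Col7a1, 1.77 for Col4a2 and 1.66 for Col8a1. It was 0.955 CPM per kb for Col16a1, 0.919 for Col12a1, 0.619 for Col4a1 and 0.437 for Col9a3, and 0.152 or less for the other 17. In CPM not divided by length, the multiplexin Col18a1 gave 45.4 to 69.8% of the summed collagen level in a group. That sum was highest in WT at 24 h in LCM with 321.8 ± 29.0 CPM (SD, n = 3) and lowest in PKP4-KO at 72 h in HCM with 68.1 ± 7.52 CPM. In the Rescue groups it ranged from 141.6 ± 5.04 to 289.7 ± 1.96 CPM.

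**Figure D1:**
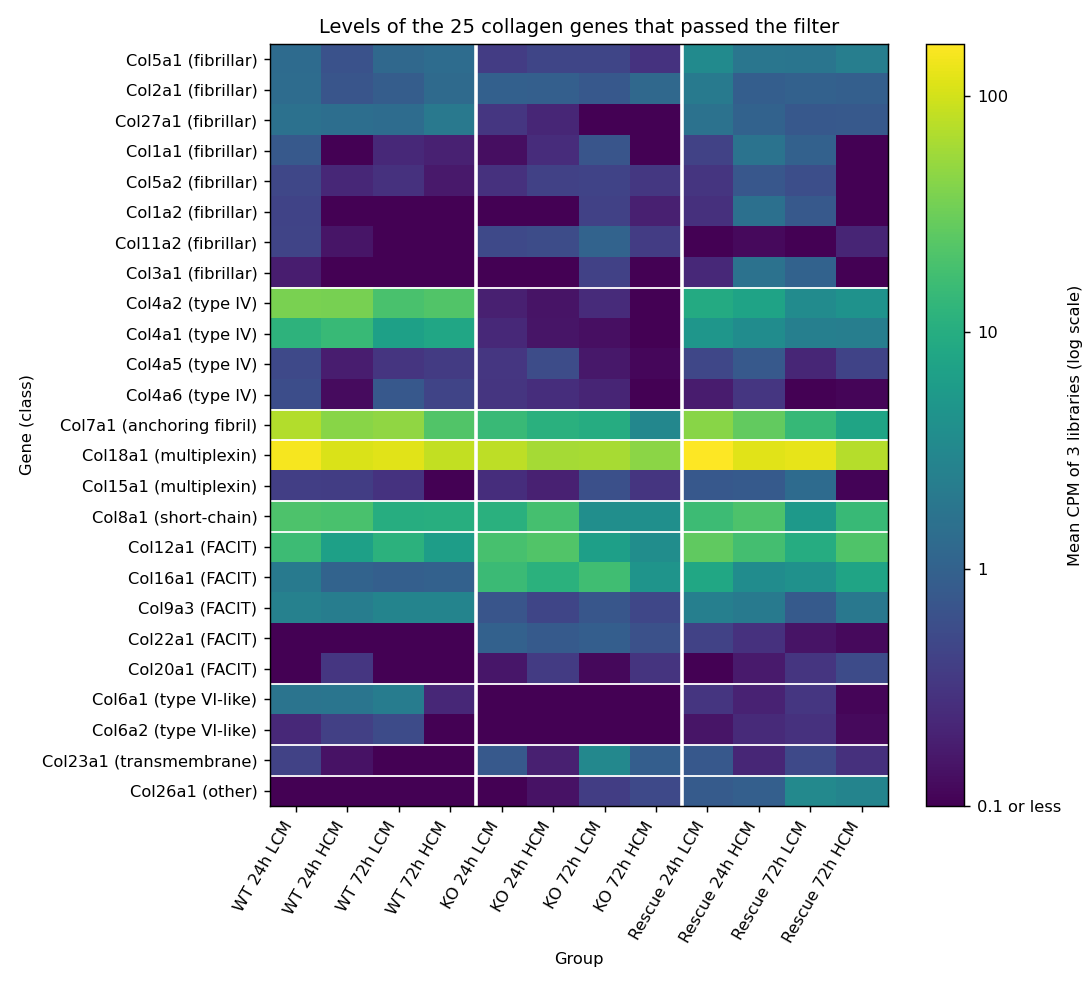
Mean level of each of the 25 tested collagen genes (vertical axis, grouped by class) in each of the 12 groups (horizontal axis), as CPM of 3 libraries on a log colour scale whose darkest colour stands for 0.1 CPM or less. Col18a1 is the brightest row in every group, and Col4a1, Col4a2, Col6a1 and Col27a1 are dark in the 4 PKP4-KO columns.

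Comparisons were made gene by gene with edgeR's quasi-likelihood test and Benjamini-Hochberg adjustment over all tested genes, and a gene is said to have risen or fallen where the adjusted p was below 0.05. Between PKP4-KO and WT, without Col4a2, 3 collagen genes were higher and 7 lower of 24 at 24 h in HCM, where 42.8% of all tested genes changed. After 72 h in HCM it was 4 higher and 8 lower (background 51.8%), after 24 h in LCM 2 higher and 9 lower (40.2%), and after 72 h in LCM 5 higher and 9 lower (45.1%). The number called was therefore near the background of these comparisons, in which close to 1 in 2 genes changed. Lower calls outnumbered higher ones among the collagen genes, as they did by a smaller margin over all tested genes. Col4a1, the partner chain of Col4a2, is among the lower calls in all 4 comparisons. Genes higher in PKP4-KO made up 20.7, 21.9, 19.7 and 21.3% of all tested genes in the same 4 comparisons, and lower genes 22.2, 29.9, 20.6 and 23.8%. The summed fibroblast markers were also lower in PKP4-KO than in WT libraries, but only 1 to 3 of the 10 reached 1 CPM in a group. In WT at 72 h, Dpt, Fap, Dcn, Lum, Thy1 and Pdgfrb had no read in any library. The fibroblast sum thus rests on few genes. The 5 muscle and pericyte markers summed to 11.8 to 12.5 CPM in WT and 0.987 to 1.61 CPM in PKP4-KO at 24 h in LCM, and to 24.6 to 25.6 and 2.44 to 3.82 CPM in HCM. At 72 h these sums were 9.93 to 17.2 and 4.36 to 5.30 CPM in LCM and 18.6 to 27.4 and 8.29 to 18.04 CPM in HCM. The 5 immune markers summed to 21.04 to 31.8 CPM in WT and 8.74 to 12.1 CPM in PKP4-KO at 24 h in LCM, and to 23.5 to 38.6 and 6.78 to 10.9 CPM in HCM, while the cell types overlapped at 72 h. In any group at most 1 of the 5 muscle and pericyte markers and 1 of the 5 immune markers reached 1 CPM. Of the immune markers, 1 to 4 had no read in any library of a group. These sums can thus rest on 1 gene. The part of any of these lists in the counts was not tested. The median log2 fold change of the 24 genes was 0.00, -1.04, -0.86 and -0.50, against 0.00, -0.07, 0.00 and 0.02 over all tested genes. With library sizes not scaled by TMM, the median of all genes shifted by -0.76 at 72 h in HCM, -0.23 at 24 h in LCM and -0.38 at 72 h in LCM, and the split at 72 h in HCM became 3 higher and 10 lower.

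Between Rescue and WT, 6 of 25 collagen genes were higher and 4 lower at 24 h in HCM (background 23.2% of all tested genes). The counts were 4 and 4 at 72 h in HCM (36.2%), 3 and 4 at 24 h in LCM (24.8%) and 4 and 7 at 72 h in LCM (32.4%). Over all genes, 11.8, 19.5, 13.5 and 17.9% were higher and 11.4, 16.7, 11.4 and 14.6% lower in this order. Leaving out Rescue replicate 2 lowered the 10 calls at 24 h in HCM to 6. Without TMM the split was 4 and 3 at 24 h in HCM, 5 and 3 at 72 h in HCM and 2 and 5 at 24 h in LCM, with shifts of the median of all genes of 0.12, 0.40 and -0.14. Between Rescue and PKP4-KO, again without Col4a2, 11 of 24 were higher and 1 lower at 24 h in HCM (40.8%). After 72 h in HCM 11 were higher and 3 lower (66.7%), after 24 h in LCM 9 and 2 (33.7%), and after 72 h in LCM 5 and 4 (41.5%). Among all genes 21.7, 37.2, 18.2 and 23.3% were higher and 19, 29.5, 15.5 and 18.3% lower. Without TMM these splits became 12 and 0, 9 and 0, and 7 and 3 in the last 3 comparisons, with median shifts of 1.17, 0.09 and 0.35. The comparisons share the WT or the PKP4-KO libraries and are not independent of each other.

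**Figure D2:**
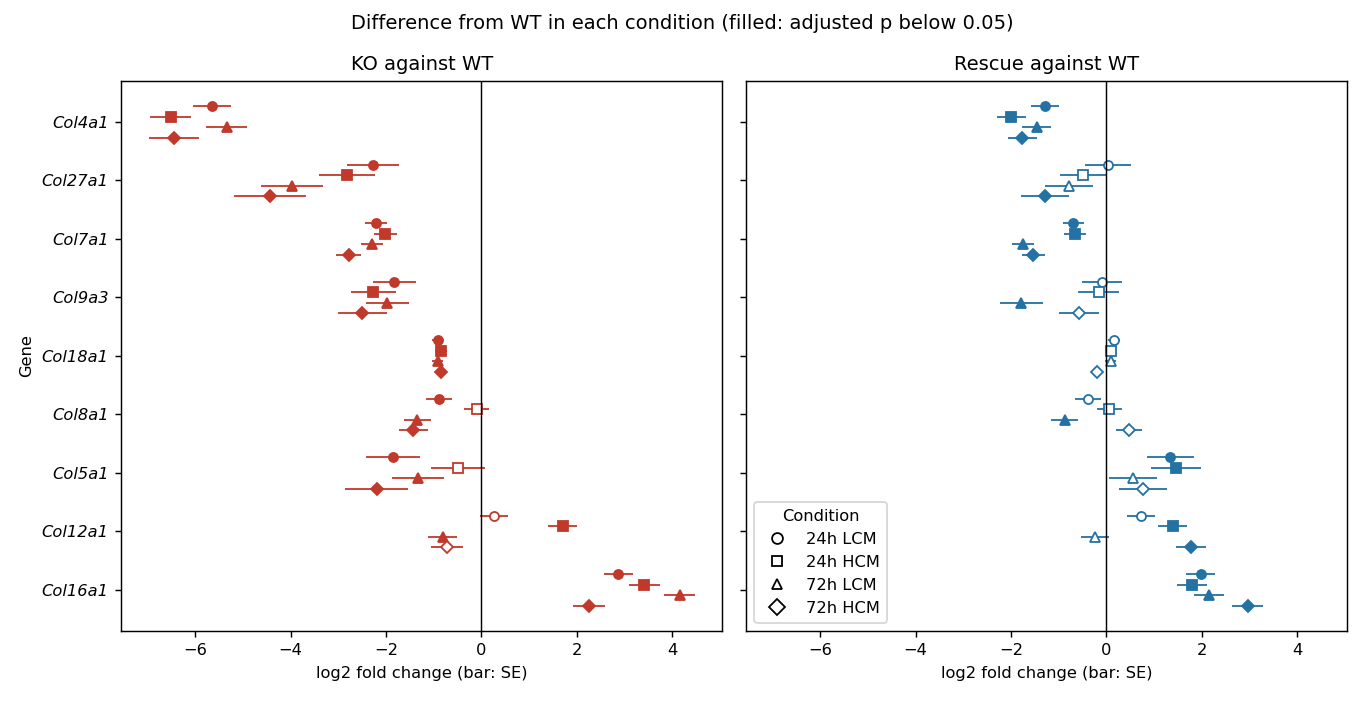
The log2 fold change of 9 collagen genes (vertical axis) between PKP4-KO and WT (left) and between Rescue and WT (right) in the 4 culture conditions, with bars for 1 SE and filled symbols for an adjusted p below 0.05. Col4a1, Col27a1, Col7a1, Col9a3 and Col18a1 lie left of 0 in PKP4-KO in every condition and Col16a1 right of it, and Col4a1, Col7a1 and Col16a1 keep their side of 0 in Rescue.

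Type IV collagen is the network of the basement membrane, and its most widespread form is a trimer of the chains encoded by Col4a1 and Col4a2. Col4a2 stood at 34.6, 38.3 and 37.5 CPM in the WT libraries at 24 h in LCM and at 35.3, 32.9 and 40.8 CPM in HCM. The WT values at 72 h were 18.7, 24.7 and 16.4 CPM in LCM and 22.8, 21.3 and 23.2 CPM in HCM. In the 12 PKP4-KO libraries Col4a2 had 0 to 9 reads, no more than 0.450 CPM. Every WT library thus lay far above every PKP4-KO library, which is the difference by which the family had been noticed. In Rescue cells Col4a2 was at 8.10, 11.1 and 8.90 CPM at 24 h in LCM, 8.72, 6.88 and 6.21 CPM at 24 h in HCM, 3.66, 2.72 and 4.20 CPM at 72 h in LCM and 4.63, 5.06 and 3.52 CPM at 72 h in HCM. All Rescue libraries were above all PKP4-KO libraries and below all WT libraries of their condition. The difference between Rescue and WT was not the one seen at the choice of the family, but it shares the WT libraries. It is thus not independent of that choice. At 24 h it was -1.97 ± 0.27 (log2 ± SE, adjusted p = 2.43e-06 by edgeR) in LCM and -2.32 ± 0.27 (adjusted p = 2.54e-07) in HCM. At 72 h it was -2.49 ± 0.28 (adjusted p = 5.31e-08) and -2.34 ± 0.28 (adjusted p = 2.29e-07).

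Col4a1, the partner chain, had the same order of the 3 cell types. The family was chosen with Col4a2 in view, so that differences of its partner are not independent of that choice. Col4a1 is also among the lower genes counted above for PKP4-KO. Its WT level was 10.2, 11.5 and 14.5 CPM at 24 h in LCM, 13.4, 13.7 and 16.8 CPM at 24 h in HCM, 6.47, 8.08 and 5.73 CPM at 72 h in LCM and 6.67, 9.45 and 7.90 CPM at 72 h in HCM. The PKP4-KO libraries had 0 to 7 reads, at most 0.350 CPM. The Rescue libraries spanned 1.62 to 5.50 CPM over the 4 conditions, and in each condition they separated from both other cell types. In PKP4-KO Col4a1 fell, with log2 fold changes of -5.64 ± 0.40 (adjusted p = 3.79e-12) and -6.52 ± 0.42 (adjusted p = 3.48e-13) at 24 h in LCM and HCM and of -5.35 ± 0.42 (adjusted p = 3.41e-11) and -6.45 ± 0.53 (adjusted p = 6.38e-11) at 72 h. Rescue exceeded PKP4-KO by 3.88 to 4.69 on this scale and differed from WT by -1.28 to -1.997, with adjusted p values of at most 0.00175 against WT. These calls held with DESeq2, without TMM, without the filter, with the replicate number as a block and with each library left out. Col4a5 and Col4a6, which encode chains of a second type IV trimer of the skin and lie side by side on the X chromosome, were low. Col4a5 had 0 to 23 reads and Col4a6 0 to 27 reads per library, and neither passed the test between PKP4-KO and WT. Col4a6 was lower in Rescue than in WT at 72 h in LCM, with 5, 0 and 1 against 16, 27 and 9 reads (-2.96 ± 0.98, adjusted p = 0.0203), a gene named after its values were seen. Col4a3 and Col4a4, the chains of kidney and lung basement membranes, did not pass the filter.

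Col4a1 and Col4a2 are a head-to-head pair. In the reference annotation of GRCm39, Col4a1 spans chr8:11248423-11362826 on the reverse strand and Col4a2 chr8:11362471-11499287 on the forward strand, and the starts of their canonical transcripts overlap over 318 bases (chr8:11362509-11362826). Reads from this overlap could be counted for the wrong gene if the strand was ignored. That region is 72.0% G and C and holds 1 CCAAT and 4 GGGCGG matches on either strand, the letters of the CCAAT box and the GC box. Of the first 318 bases of 21757 protein-coding genes, 26.3% held CCAAT and 43.4% held GGGCGG. The CCAAT of the pair lies within this stretch of the overlap, given on the forward strand of chr8:11362761-11362790 with the match in capitals and shown because both type IV chains share it.
Col4a1-Col4a2 shared stretch: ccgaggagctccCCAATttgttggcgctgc
Tested genes within 2 Mb of Col4a2, 23 in number, had a median log2 fold change between PKP4-KO and WT of -0.42, -0.39, -0.14 and -0.08 at 24 h and 72 h in HCM and at 24 h and 72 h in LCM. Over all tested genes the medians were 0.00, -0.07, 0.00 and 0.02. Near other collagen genes they went both ways, with -0.54, -0.40, -0.59 and -0.47 around Col9a3 and 0.32, 0.11, 0.14 and 0.18 around Col16a1.

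**Figure D3:**
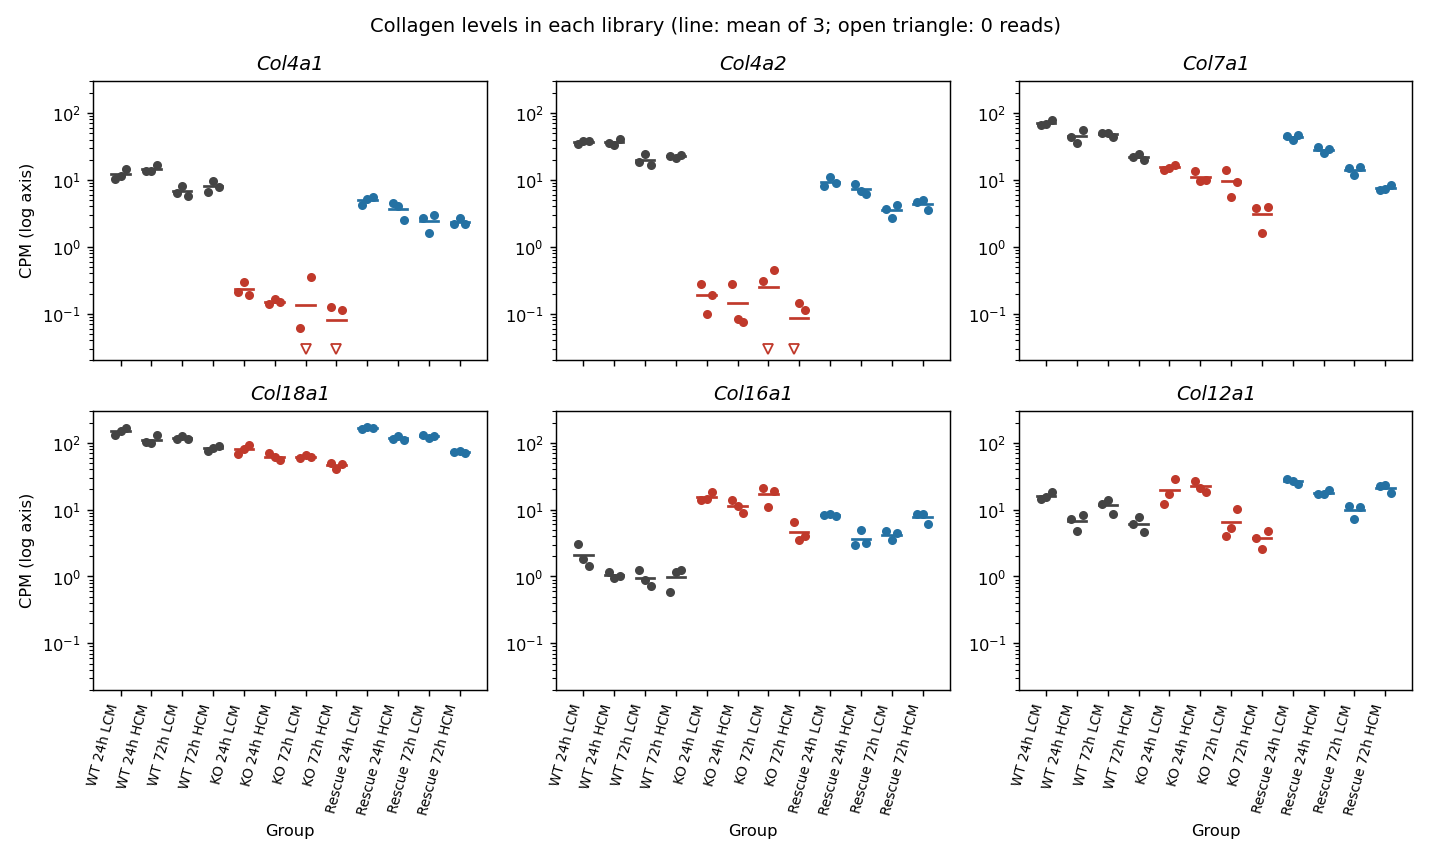
CPM of 6 collagen genes on a log axis in every library of the 12 groups, with a line at the mean of 3 and an open triangle at the lower edge for 0 reads. Col4a1 and Col4a2 fall below 0.5 CPM in every PKP4-KO library and lie between PKP4-KO and WT in Rescue, while Col16a1 is above WT in both other cell types.

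Col7a1 encodes the chain of the anchoring fibrils that tie the epidermal basement membrane to the dermis, and its loss causes dystrophic epidermolysis bullosa. In WT it stood at 65.6, 69.0 and 78.8 CPM at 24 h in LCM and at 43.1, 35.6 and 54.7 CPM in HCM, and at 72 h at 50.2, 50.1 and 43.6 CPM in LCM and 21.6, 24.4 and 19.7 CPM in HCM. PKP4-KO libraries had 13.9, 15.3 and 16.9 CPM and 13.4, 9.54 and 10.05 CPM at 24 h in LCM and HCM, and 14.1, 5.62 and 9.35 CPM and 3.81, 1.60 and 3.97 CPM at 72 h. All PKP4-KO libraries were below all WT libraries in each of the 4 conditions. Col7a1 fell, with log2 fold changes of -2.21 ± 0.23 (SE, adjusted p = 1.18e-08) and -2.01 ± 0.23 (adjusted p = 4.22e-08) at 24 h in LCM and HCM, and of -2.30 ± 0.24 (adjusted p = 6.71e-09) and -2.79 ± 0.27 (adjusted p = 1.35e-09) at 72 h. Rescue cells had 39.3 to 47.5 CPM and 25.6 to 30.7 CPM at 24 h in LCM and HCM, but 11.9 to 15.5 CPM and 7.09 to 8.42 CPM at 72 h. They lay below WT in every condition, with log2 differences of -1.76 ± 0.23 (adjusted p = 6.75e-07) and -1.53 ± 0.23 (adjusted p = 1.06e-05) at 72 h in LCM and HCM. The smaller differences at 24 h, -0.69 ± 0.22 (adjusted p = 0.0233) in LCM and -0.66 ± 0.23 (adjusted p = 0.0338) in HCM, were not stable. In LCM the call was lost without WT replicate 3 (adjusted p = 0.0867), Rescue replicate 1 (0.0501) or Rescue replicate 2 (0.0959). In HCM the call was lost without any Rescue replicate (0.054 to 0.123), without WT replicate 1 (0.0571) or 3 (0.186), without TMM (0.221) and without the filter (0.0699). Against PKP4-KO the Rescue level was higher by 1.52 ± 0.23 and 1.36 ± 0.23 at 24 h in LCM and HCM and by 1.26 ± 0.26 at 72 h in HCM, with adjusted p values of at most 0.000171. In LCM at 72 h the difference of 0.54 ± 0.23 did not pass (adjusted p = 0.0631). It passed with the replicate number as a block (0.56, adjusted p = 0.0387), with DESeq2 (0.0457), without TMM (0.0188), without PKP4-KO replicate 1 (0.0033) and without Rescue replicate 2 (0.0382). Col7a1 lies at chr9:108782647-108813943 on the forward strand. Its 150 bases before the annotated start, printed as the start of the second most abundant collagen gene per length, hold 1 GGGCGG match, in capitals, at chr9:108782497-108782646. Among the same windows of 21757 protein-coding genes, 32.6% held GGGCGG.
Col7a1 upstream: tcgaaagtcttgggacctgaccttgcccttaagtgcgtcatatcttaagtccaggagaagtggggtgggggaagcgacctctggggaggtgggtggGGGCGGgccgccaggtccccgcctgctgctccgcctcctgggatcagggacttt

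Col18a1, the most abundant collagen gene, encodes a basement membrane collagen with heparan sulfate chains whose end is the anti-angiogenic fragment endostatin. WT libraries had 131, 148 and 167 CPM and 103, 97.8 and 130 CPM at 24 h in LCM and HCM, and 113, 124 and 115 CPM and 75.2, 84.4 and 89.2 CPM at 72 h. In PKP4-KO the values were 66.8, 79.3 and 91.1 CPM, 69.4, 60.1 and 54.4 CPM, 58.8, 65.0 and 62.1 CPM, and 49.8, 40.4 and 48.4 CPM in the same order. The highest PKP4-KO library was below the lowest WT library in each condition. Col18a1 fell, with log2 fold changes of -0.84 to -0.92, each with an SE of 0.12 or 0.13 and an adjusted p of at most 3e-06, and no alternative setting ended a call. These differences were too small for the rule that names genes and are given after their values were seen. Rescue libraries had 160 to 170, 111 to 126, 118 to 132 and 70.4 to 75.2 CPM in the same 4 conditions and differed from WT by 0.15, 0.09, 0.09 and -0.20, none past the threshold (adjusted p = 0.217 to 0.688). They exceeded PKP4-KO by 1.01 ± 0.13 at 72 h in LCM (adjusted p = 1.9e-07). Col18a1 overlaps Slc19a1 on the opposite strand, a folate carrier gene with 17501 reads in all against 67086 for Col18a1, so that the strand setting of the counting, not given in the sources used here, could affect its value. The other multiplexin, Col15a1, had at most 37 reads per library. It was higher in Rescue than in WT at 72 h in LCM, with 37, 18 and 26 against 1, 10 and 10 reads (2.12 ± 0.71, adjusted p = 0.0223), a call lost without WT replicate 1 (1.63, adjusted p = 0.112).

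Among the FACIT collagens, which decorate the surface of fibrils or link the matrix to cells, Col16a1 went the other way. It was low in WT, with 3.01, 1.81 and 1.46 CPM at 24 h in LCM, 1.18, 0.934 and 1.02 CPM at 24 h in HCM, 1.25, 0.871 and 0.728 CPM at 72 h in LCM and 0.591, 1.17 and 1.23 CPM at 72 h in HCM. PKP4-KO libraries had 13.7, 14.5 and 18.1 CPM, 13.7, 11.4 and 8.79 CPM, 20.97, 10.99 and 19.0 CPM, and 6.61, 3.49 and 3.97 CPM in this order. Every PKP4-KO library exceeded every WT library of its condition. Col16a1 rose by 2.88 ± 0.30 (adjusted p = 9.19e-09) and 3.42 ± 0.32 (adjusted p = 6.41e-10) at 24 h in LCM and HCM and by 4.16 ± 0.32 (adjusted p = 2.2e-11) and 2.25 ± 0.34 (adjusted p = 3.01e-06) at 72 h on the log2 scale. In Rescue it stood at 8.05 to 8.48 CPM, 3.002 to 4.87 CPM, 3.53 to 4.73 CPM and 5.99 to 8.53 CPM. All Rescue libraries were again above the WT libraries of their condition, by 1.98 ± 0.30 (adjusted p = 8.98e-06), 1.80 ± 0.32 (adjusted p = 8.79e-05), 2.16 ± 0.31 (adjusted p = 3.1e-06) and 2.96 ± 0.33 (adjusted p = 6.45e-08). Against PKP4-KO, Rescue was lower, with a log2 difference of -1.62 ± 0.29 at 24 h in HCM and -2.004 ± 0.29 at 72 h in LCM (adjusted p = 3.33e-05 and 1.75e-06). In LCM at 24 h the difference of -0.90 ± 0.27 (adjusted p = 0.0114) was lost without PKP4-KO replicate 3 (0.0561) and without TMM (0.0685). In HCM at 72 h Rescue was higher by 0.71 ± 0.29 (adjusted p = 0.0341), a call lost without PKP4-KO replicate 2 (0.15) or 3 (0.122), Rescue replicate 1 (0.0934) or 2 (0.094), without the filter (0.0539) and with DESeq2 (0.0732). The 150 bases before the start of Col16a1 (chr4:129941004-129941153, forward strand, gene at chr4:129941154-129993076) are shown as those of a collagen gene that rose in all 4 conditions. They held no match to either of the boxes searched above, to the TATA box, TATAAA, or to the AP-1 motif, whose letters are TGANTCA.
Col16a1 upstream: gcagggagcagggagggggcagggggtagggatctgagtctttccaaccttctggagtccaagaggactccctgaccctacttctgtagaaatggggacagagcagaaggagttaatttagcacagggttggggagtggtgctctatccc

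Col12a1, a FACIT collagen of tissues under tension, differed by condition. It was in HCM at 24 h at 7.21, 4.81 and 8.31 CPM in WT, 26.9, 20.9 and 18.6 CPM in PKP4-KO and 17.3, 16.8 and 19.4 CPM in Rescue. Both groups lay above WT, by 1.70 ± 0.30 (adjusted p = 3.74e-05) and 1.39 ± 0.30 (adjusted p = 0.00102). In LCM at 24 h the ranges were 14.6 to 18.1 CPM in WT, 12.1 to 29.0 CPM in PKP4-KO and 24.5 to 28.9 CPM in Rescue. Neither group passed the edgeR test against WT there. All Rescue libraries lay above all WT libraries, and Rescue passed with DESeq2 (0.72, adjusted p = 0.0454). Col12a1 at 72 h in HCM stood at 6.02, 7.75 and 4.61 CPM in WT, 3.81, 2.62 and 4.77 CPM in PKP4-KO and 22.5, 23.7 and 17.5 CPM in Rescue. Rescue exceeded WT by 1.78 ± 0.31 (adjusted p = 5.27e-05) and PKP4-KO by 2.49 ± 0.33 (adjusted p = 3.3e-07), while PKP4-KO and WT overlapped (-0.71 ± 0.33, adjusted p = 0.0746). That difference passed without TMM (-1.50, adjusted p = 0.00318) and without WT replicate 3 (-0.87, adjusted p = 0.0414). In LCM at 72 h PKP4-KO differed by -0.81 ± 0.30 (adjusted p = 0.0306), which was lost without PKP4-KO replicate 1 (0.168) or 2 (0.12) and without WT replicate 1 (0.0736) or 2 (0.126).

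Col9a3, a chain of the FACIT collagen of cartilage, was lower in PKP4-KO in each condition. It had in HCM at 24 h 45, 22 and 58 reads in WT, against 10, 12 and 6 in PKP4-KO, while Rescue libraries had 45, 45 and 24. The PKP4-KO libraries lay below both other groups, and Col9a3 fell, with log2 fold changes of -1.83 to -2.5001 over the 4 conditions, SEs of 0.45 to 0.52 and adjusted p values of at most 0.00179. In Rescue it was lower than WT at 72 h in LCM alone among the 4 conditions tested, with 19, 17 and 10 against 61, 50 and 74 reads (-1.79 ± 0.45, adjusted p = 0.00254). Col9a3 overlaps Tcfl5, a transcription factor gene on the opposite strand with 3386 reads in all against 1130. Col22a1, a collagen of tissue junctions, had 0 to 3 reads in WT libraries and 17 to 20 in PKP4-KO libraries at 24 h in LCM. In HCM at 24 h, where WT had 1 read in all, PKP4-KO was 45.0-fold higher with an exact counting interval of 7.71 to 1811. In LCM at 72 h the ratio was 20.9 (6.69 to 105). In HCM at 72 h the call (2.68 ± 1.101, adjusted p = 0.0425) rested on PKP4-KO replicate 1, with 12 reads against 0 and 3 in the others, and without it was 0.95 (adjusted p = 0.579). It was also lost without WT replicate 2 (0.159) or 3 (0.0646), without TMM (0.127) and without the filter (0.0699). Col22a1 was not singled out by the rule for naming genes, and its values were seen first. With so few reads in WT, it passed the filter through other libraries. Its higher level in PKP4-KO was thus partly fixed by the filter, and these values are a description. Col20a1, which shares its strand with the non-coding gene 9230112E08Rik, had at most 21 reads in a library and passed no test against WT.

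The short-chain collagen Col8a1, known from vessels and the cornea, was present in all groups, while its partner Col8a2 had at most 3 reads in a library. At 24 h WT libraries had 21.3, 17.2 and 23.8 CPM in LCM and 25.6, 16.5 and 17.4 CPM in HCM, and at 72 h 9.63, 11.3 and 9.09 CPM and 12.3, 12.4 and 6.87 CPM. PKP4-KO had 8.18, 9.44 and 15.8 CPM and 16.8, 20.8 and 17.95 CPM at 24 h, and 3.47, 2.52 and 5.70 CPM and 3.05, 5.38 and 3.52 CPM at 72 h. The PKP4-KO libraries were below WT in 3 of the conditions and overlapped with it at 24 h in HCM. Col8a1 fell, with log2 fold changes of -1.34 ± 0.29 (adjusted p = 0.000371) and -1.42 ± 0.30 (adjusted p = 0.000294) at 72 h in LCM and HCM, values read outside the rule for naming. In LCM at 24 h the fall was -0.90 ± 0.27 (adjusted p = 0.00977), a call lost without PKP4-KO replicate 1 (-0.72, adjusted p = 0.0656). Rescue was at 12.2 to 24.8 CPM at 24 h and did not pass the test against WT there. It had 5.31, 4.93 and 6.09 CPM at 72 h in LCM and differed from WT by -0.88 ± 0.28 (adjusted p = 0.0159), which was lost without Rescue replicate 2 (0.0546) or WT replicate 2 (0.0636) and without TMM (0.0644).

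Type VI collagen forms beaded filaments near cells and is a trimer of the products of Col6a1, Col6a2 and Col6a3. Col6a1 had 34, 31 and 31 reads in WT at 24 h in LCM, 38, 23 and 33 at 24 h in HCM, 45, 53 and 54 at 72 h in LCM and 5, 5 and 1 at 72 h in HCM. PKP4-KO libraries had 0 to 3 reads in every condition, and all 3 libraries had 0 reads at 24 h in LCM and at 72 h in HCM. In LCM at 24 h PKP4-KO was thus at least 10.4-fold lower, against the floor of 3 counts per library. With 1 read in each PKP4-KO library at 24 h in HCM, WT was 34.9-fold higher (exact counting interval 11.6 to 172). Rescue had 2 to 15, 1 to 5, 3 to 9 and 1 to 5 reads in the 4 conditions, and it was lower than WT, with log2 differences of -2.41 ± 0.55 (adjusted p = 0.00188), -3.11 ± 0.58 (adjusted p = 0.000286) and -2.76 ± 0.55 (adjusted p = 0.00034) at 24 h in LCM and HCM and at 72 h in LCM. Col6a2 had 3 to 15 reads in the WT libraries of these 3 conditions and 0 reads in 11 of 12 PKP4-KO libraries, the exception being 6 reads in replicate 3 at 72 h in LCM. Its lower level in PKP4-KO passed the test at 24 h in both media, in LCM with 6, 3 and 4 reads in WT, a call lost without any PKP4-KO library or WT replicate 1 (adjusted p = 0.0646 to 0.0742). The third chain, Col6a3, did not pass the filter and had 0 to 8 reads per library.

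A pair of low genes had their highest level at 72 h in LCM, Col23a1 in PKP4-KO and Col26a1 in Rescue cells. Col23a1, a transmembrane collagen, had 59, 38 and 55 reads in PKP4-KO at 72 h in LCM, 1, 0 and 0 in WT and 18, 4 and 11 in Rescue. PKP4-KO exceeded WT there by 7.18 ± 0.89 (adjusted p = 1.59e-07), a ratio of 211 with an exact counting interval of 37.4 to 8399, and Rescue was lower than PKP4-KO by -2.59 ± 0.62 (adjusted p = 0.0012). The reads at 24 h in LCM were closer, with 10, 5 and 9 in WT and 12, 14 and 18 in PKP4-KO, and that difference did not pass the test (0.87 ± 0.63, adjusted p = 0.276). Col26a1, a secreted collagen with short triple helices, had 0 to 2 reads in WT libraries and 0 to 10 in PKP4-KO libraries. In Rescue it had 16, 27 and 10 reads at 24 h in LCM, 20, 23 and 9 at 24 h in HCM, 69, 67 and 44 at 72 h in LCM and 59, 77 and 59 at 72 h in HCM. Every Rescue library exceeded every WT library of its condition. Rescue was at least 12.9-fold higher than WT at 72 h in HCM, where WT had no read, and at 72 h in LCM the ratio was 202 (exact counting interval 35.8 to 8013). Rescue also exceeded PKP4-KO, by 3.05 ± 0.70 (adjusted p = 0.000949) and 2.47 ± 0.72 (adjusted p = 0.00422) at 72 h in LCM and HCM. With so few reads in WT and PKP4-KO, Col26a1 passed the filter through its Rescue libraries. Its higher level in Rescue was thus partly fixed by the filter, and these values are a description.

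The fibrillar collagens were low throughout. Col27a1, a fibrillar collagen of cartilage and other tissues, was the one that changed in PKP4-KO in every condition. It had 23, 34 and 30 reads in WT at 24 h in LCM, 36, 17 and 25 at 24 h in HCM, 25, 41 and 26 at 72 h in LCM and 20, 33 and 28 at 72 h in HCM. PKP4-KO libraries had 4 to 8, 1 to 6, 0 to 3 and 0 to 1 reads in this order. No PKP4-KO library reached the lowest WT library of its condition, and Col27a1 fell, with log2 fold changes of -2.27 ± 0.54 (adjusted p = 0.00138), -2.82 ± 0.58 (adjusted p = 0.000213), -3.97 ± 0.66 (adjusted p = 1.71e-05) and -4.43 ± 0.75 (adjusted p = 1.89e-05). In Rescue it had 7 to 34 reads. The 1 difference from WT that passed, -1.29 ± 0.50 (adjusted p = 0.0442) at 72 h in HCM, was lost without Rescue replicate 1 (0.146) or 2 (0.134), WT replicate 2 (0.0695) or 3 (0.206), without TMM (0.175) and without the filter (0.0939). Col5a1, whose chain nucleates fibrils together with that of Col5a2, had 28, 15 and 32 reads in WT, against 7, 4 and 9 in PKP4-KO, while Rescue libraries had 72, 77 and 58 at 24 h in LCM. Rescue exceeded PKP4-KO there by 3.20 ± 0.56 (adjusted p = 4.6e-05). PKP4-KO differed from WT by -1.85 ± 0.56 (adjusted p = 0.00943), a call lost without PKP4-KO replicate 2 (-1.55, adjusted p = 0.0563), and by -2.20 ± 0.65 (adjusted p = 0.00638) at 72 h in HCM. Rescue was above WT by 1.34 ± 0.50 at 24 h in LCM (adjusted p = 0.0489), a call lost when any of the 6 libraries was left out (0.0666 to 0.172). Col5a2 did not pass between PKP4-KO and WT at 72 h in HCM (1.02 ± 1.08, adjusted p = 0.438). Col2a1, the cartilage collagen, had 6 to 51 reads and passed no test against WT. Col11a2 had 30, 4 and 20 reads in PKP4-KO against 2, 3 and 1 in WT at 72 h in LCM (3.49 ± 1.14, adjusted p = 0.014), a call lost without PKP4-KO replicate 1 (0.0634) or WT replicate 3 (0.0562).

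The chains of type I and type III collagen, the bulk of the dermal fibrils, were seen in a few single libraries. Reads of Col1a1, Col1a2 and Col3a1 numbered 79, 65 and 83 in Rescue replicate 1 at 72 h in LCM, and 56, 68 and 74 in Rescue replicate 2 at 24 h in HCM. They numbered 39, 25 and 20 in PKP4-KO replicate 3 at 72 h in LCM, 34, 15 and 17 in Rescue replicate 1 at 24 h in HCM, 30, 20 and 7 in WT replicate 1 at 24 h in LCM, and 22, 17 and 17 in Rescue replicate 2 at 24 h in LCM. The other 30 libraries had at most 9, 5 and 4 reads. High and low libraries thus stood side by side within 1 group. The fibroblast proteoglycan gene Dcn had 12, 11, 3, 3, 10 and 4 reads in those 6 libraries in the same order, and 0 to 3 elsewhere. Among the other fibroblast markers, Pdgfra and Thy1 did not follow these libraries. Pdgfra, a growth factor receptor gene, had 0 to 9 reads in those 6 and 109 to 124 in the Rescue libraries at 72 h in HCM, where Col1a1, Col1a2 and Col3a1 had 0 to 5. The surface marker gene Thy1 had 102 reads in WT replicate 1 at 24 h in LCM and 0 to 3 in the other 5, but also 9 to 20 in 4 of the other 30 libraries. Lum had 1, 2, 1, 0, 0 and 0 reads in the 6 libraries in the same order, and 0 to 1 elsewhere. Pdgfrb had 0, 1, 3, 1, 4 and 4 reads there, and 0 to 2 elsewhere. Over the 36 libraries, which share depth and culture, Spearman's rho was 0.51 between Col1a1 and Col1a2, 0.60 between Col1a1 and Col3a1 and 0.68 between Col1a2 and Col3a1, as a description of sparse counts. With Dcn it was 0.38 for Col1a1, 0.82 for Col1a2 and 0.70 for Col3a1. The part of other cells in these reads was not tested. Rescue exceeded WT at 24 h in HCM in Col1a1 (5.26 ± 1.68, adjusted p = 0.0219) and Col3a1 (5.96 ± 2.16, adjusted p = 0.0476). Without Rescue replicate 2 neither passed (adjusted p = 0.0775 and 0.251), and Col1a1 was also lost without WT replicate 2 (0.0729) or 3 (0.0866). The call of Col3a1 was lost without 5 of the 6 libraries, all but Rescue replicate 3 (0.0591 to 0.251), with DESeq2 (0.239), without TMM (0.0532) and with the replicate number as a block (0.0744). The sequences before the starts of Col1a1 (chr11:94826900-94827049) and Col3a1 (chr1:45350548-45350697), both on the forward strand, are shown as those of genes that appeared together. Capitals mark CCAAT on the reverse strand, which reads ATTGG here, in Col1a1 and TATAAA in Col3a1.
Col1a1 upstream: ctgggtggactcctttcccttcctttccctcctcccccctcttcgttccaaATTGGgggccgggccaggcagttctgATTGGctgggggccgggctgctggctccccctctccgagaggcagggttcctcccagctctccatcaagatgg
Col3a1 upstream: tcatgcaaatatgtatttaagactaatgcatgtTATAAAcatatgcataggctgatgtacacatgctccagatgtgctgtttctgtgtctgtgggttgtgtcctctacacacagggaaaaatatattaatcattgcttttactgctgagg
Over the 25 tested collagen genes, 6 held CCAAT in this window (24% against 27.7% of 21757 genes), 12 held GGGCGG (48% against 32.6%), 2 held TATAAA (8% against 7.29%) and none held TGANTCA (3.61% of all genes). Both strands were searched, and a match is no more than these letters.

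**Figure D4:**
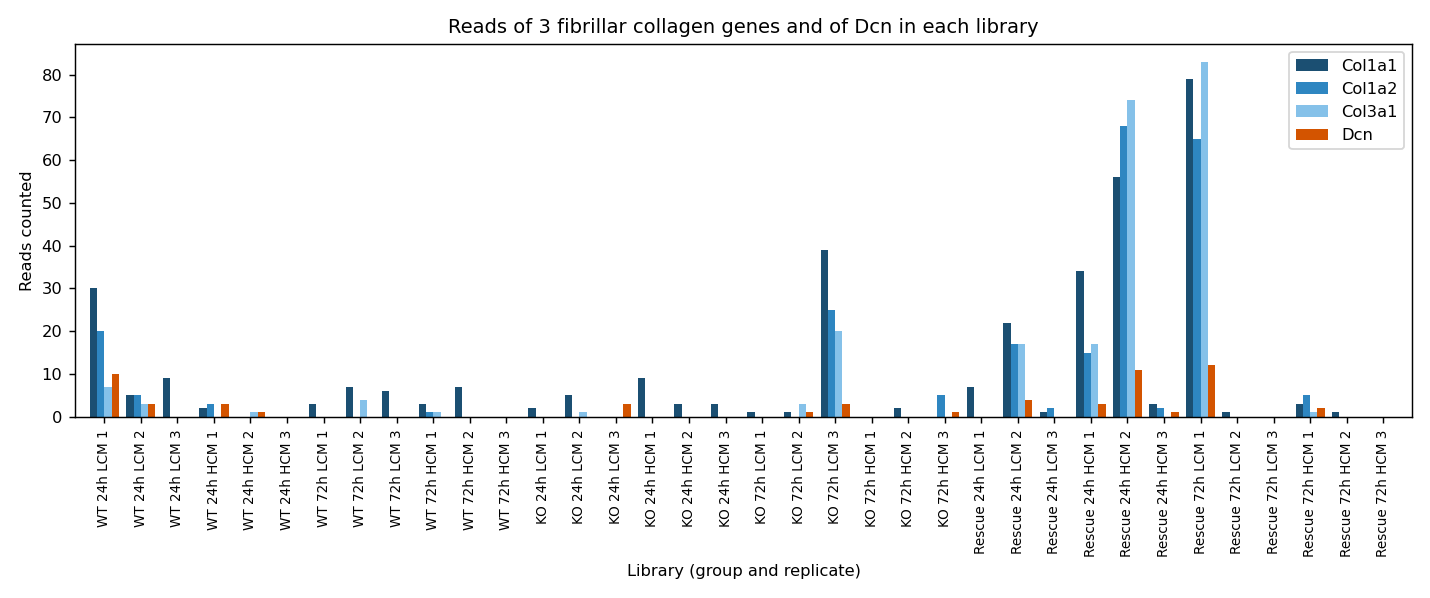
Reads counted for Col1a1, Col1a2, Col3a1 and Dcn (bars, from 0) in each of the 36 libraries (horizontal axis, by group and replicate). The tallest bars, up to 83 reads, stand in 1 library each of Rescue at 72 h in LCM and at 24 h in HCM, beside libraries of the same groups with few or no reads.

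High calcium was compared with low calcium within each cell type and time. In WT, 4 of 25 collagen genes were lower and 0 higher in HCM at 24 h, where 14.2% of all tested genes changed, 6.48% lower and 7.69% higher. The counts were also 4 and 0 at 72 h (21.4%, of which 10.8 lower and 10.6 higher). In PKP4-KO none passed at 24 h by edgeR (2.83%, with 1.40 lower and 1.44 higher), against 1 by DESeq2 and 5 at an unadjusted p below 0.05, and 4 were lower at 72 h (32.6%, with 19.7 lower and 12.9 higher). In Rescue 2 were lower at 24 h (12%, with 5.96 lower and 6% higher), and 4 were lower and 4 higher at 72 h (24.9%, with 12% lower and 13% higher). Without TMM the median of all genes moved by -0.29 and -0.30 in WT at 24 h and 72 h, by -0.69 in PKP4-KO at 72 h and by 0.13 in Rescue at 72 h. Col18a1 was lower in HCM in 5 of the 6 comparisons and Col7a1 in 4. For Col7a1 the log2 fold change at 72 h was -1.13 ± 0.23 in WT (adjusted p = 0.000516), -1.62 ± 0.26 in PKP4-KO (adjusted p = 2.87e-05) and -0.90 ± 0.23 in Rescue (adjusted p = 0.00484, lost without TMM at 0.0687). For Col18a1 it was -0.50 ± 0.12 in WT (adjusted p = 0.00396), -0.42 ± 0.13 in PKP4-KO (adjusted p = 0.0107, lost without PKP4-KO replicate 2 in HCM at 0.0763) and -0.78 ± 0.12 in Rescue (adjusted p = 2.68e-05). The call of Col18a1 in Rescue at 24 h (-0.50 ± 0.12, adjusted p = 0.00653) was lost without TMM (0.0879) and without the filter (0.0831). Col12a1 fell by 1.24 ± 0.30 in HCM at 24 h in WT (adjusted p = 0.00466). The calls of Col16a1, Col7a1 and Col18a1 in that comparison, with adjusted p values of 0.0167 to 0.0405, were each lost without WT replicate 1 or 2 in HCM and without the filter.

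For 3 genes the response to calcium differed by the interaction test. Col16a1 fell in HCM at 72 h in PKP4-KO by 1.86 ± 0.29 (adjusted p = 1.87e-05) and stood level in WT (0.05 ± 0.35), a difference of -1.91 ± 0.46 (adjusted p = 0.00962). Col12a1 rose in HCM at 72 h in Rescue, by 1.11 ± 0.30 (adjusted p = 0.00666), and fell in WT by 0.90 (adjusted p = 0.0322), and these responses differed by 2.01 ± 0.43 (adjusted p = 0.00156). The fall in WT was lost without replicate 1 or 3 in HCM and without replicate 1 or 2 in LCM (adjusted p = 0.0768 to 0.147), whereas the difference held under every setting. Col8a1 rose in HCM at 72 h in Rescue from 5.45 ± 0.588 to 14.8 ± 3.20 CPM (SD, n = 3; 1.44 ± 0.28, adjusted p = 0.000336), against 10.02 ± 1.17 and 10.6 ± 3.19 CPM in WT, a difference between the responses of 1.35 ± 0.39 (adjusted p = 0.0184). Of the 25 genes, 1 thus passed for PKP4-KO at 72 h, where 5.74% of all genes did (1.85 higher, 3.88 lower), and 2 for Rescue at 72 h, where 14.6% did (6.81 higher, 7.77 lower). The comparisons of Rescue were added after the data had been seen. For PKP4-KO at 24 h Col12a1 alone passed, against 4.02% of all genes (1.23 higher, 2.79 lower). For Rescue at 24 h none passed by edgeR or DESeq2, and 2 had an unadjusted p below 0.05 (0.0662% of all genes passed, 0.0132 higher and 0.0529 lower). Without TMM the median of all genes moved by 0.29 and -0.38 for PKP4-KO at 24 h and 72 h and by 0.26 and 0.43 for Rescue.

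**Figure D5:**
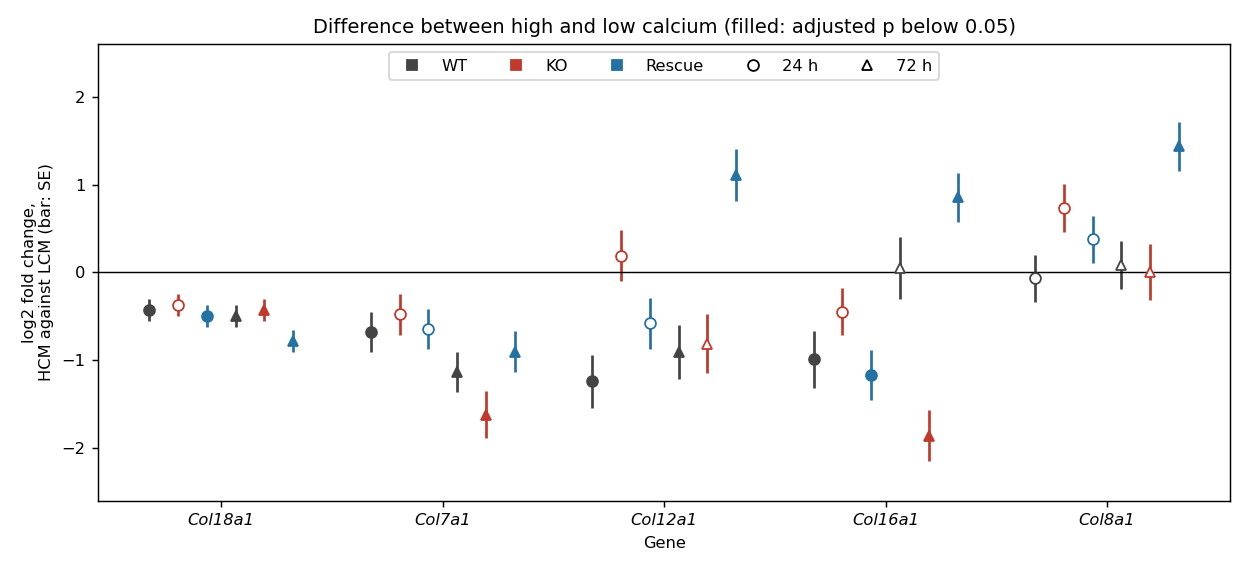
The log2 fold change between HCM and LCM (vertical axis) of 5 collagen genes in WT, PKP4-KO and Rescue cells (colours) at 24 h (circles) and 72 h (triangles), with bars for 1 SE and filled symbols for an adjusted p below 0.05. Col18a1 and Col7a1 lie below 0 in all 6 comparisons, while Col12a1, Col16a1 and Col8a1 lie above 0 in Rescue at 72 h.

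Time in culture was compared in the same way. From 24 h to 72 h, 6 of 25 collagen genes fell and none rose in WT in HCM (background 17.8%) and 4 fell in LCM (9.96%). In PKP4-KO 1 rose and 5 fell in HCM (55.8%), and 3 rose and 5 fell in LCM (26.1%). In Rescue 1 rose and 6 fell in HCM (24.3%), and 8 fell in LCM (9.81%). In this order, 9.16, 5.29, 24.3, 12.4, 13.6 and 6.84% of all tested genes rose and 8.69, 4.66, 31.4, 13.7, 10.7 and 2.96% fell. Without TMM, the median of all genes moved by -1.07 in PKP4-KO in HCM, where the split became 0 and 9, by -0.37 in LCM, by -0.24 and -0.22 in WT and by -0.11 in Rescue in LCM. The log2 fold change of Col7a1 in HCM was -1.79 ± 0.26 (adjusted p = 2.18e-06) in PKP4-KO, -1.90 ± 0.24 (adjusted p = 6.02e-07) in Rescue and -1.02 ± 0.23 (adjusted p = 0.00208) in WT. That of Col12a1 and Col8a1 in PKP4-KO in HCM was -2.56 ± 0.33 (adjusted p = 3.03e-07) and -2.23 ± 0.30 (adjusted p = 6.4e-07). In WT in HCM Col12a1 moved by -0.14 ± 0.31 (adjusted p = 0.794). The time courses of the cell types were not tested against each other.

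The enzymes and partners of collagens were followed in 4 lists. Of 20 tested modifying enzymes and chaperones, 4 were higher and 5 lower in PKP4-KO at 24 h in HCM, 7 and 8 at 72 h in HCM, 2 and 5 at 24 h in LCM and 7 and 4 at 72 h in LCM. Over all tested genes, 20.7, 21.9, 19.7 and 21.3% were higher and 22.2, 29.9, 20.6 and 23.8% lower in these 4 comparisons. P4ha1, a subunit of the prolyl hydroxylase that stabilises the triple helix, rose from 5.21 ± 0.541 to 40.1 ± 3.90 CPM (SD, n = 3) at 72 h in LCM (2.95 ± 0.22, adjusted p = 1.48e-11). Serpinh1, the collagen chaperone HSP47, fell by 1.35 ± 0.18 (adjusted p = 7.56e-07) at 72 h in HCM. Of 8 tested procollagen proteinases and cross-linking enzymes, 4, 6, 5 and 5 were lower in these 4 comparisons and 1, 0, 0 and 0 higher. The median log2 fold change of this list was -0.85, -2.52, -0.96 and -1.72. Pxdn, whose product cross-links type IV collagen by sulfilimine bonds, fell with Col4a1: from 22.2 ± 5.90 to 0.253 ± 0.181 CPM at 24 h in HCM (-6.57 ± 0.45, adjusted p = 1.14e-12). In Rescue it was at 15.3 ± 1.24 CPM (-0.54 ± 0.31 against WT, adjusted p = 0.236). Loxl4, a lysyl oxidase that cross-links collagens, fell from 9.08 ± 2.13 to 0.200 ± 0.312 CPM (-5.36 ± 0.63, adjusted p = 4.88e-08) and was at 0.273 ± 0.165 CPM in Rescue (-5.04 ± 0.62, adjusted p = 4.21e-07). Among 14 tested basement membrane partners, 7, 12, 10 and 10 were lower in PKP4-KO and 3, 0, 0 and 1 higher, with medians of -0.67, -1.26, -0.62 and -0.81. Lamb1, a laminin chain, fell by 3.48 ± 0.22 on the log2 scale (adjusted p = 2.34e-13) at 72 h in HCM. In the same comparison Sparc, a matrix protein that binds collagen, fell from 429 ± 18.1 to 50.3 ± 9.47 CPM (-3.09 ± 0.14, adjusted p = 2.37e-16). Of 6 tested collagen receptors, Mrc2, an endocytic receptor, rose by 3.23 ± 0.44 at 24 h in HCM (adjusted p = 7.36e-07), and 2, 1, 1 and 1 were higher and 2, 1, 2 and 0 lower in the 4 comparisons. The medians over all tested genes in these comparisons were 0.00, -0.07, 0.00 and 0.02. In Rescue the basement membrane partners had 1 higher and 7 lower than WT at 24 h in HCM, 5 and 3 at 72 h in HCM, 1 and 2 at 24 h in LCM and 3 and 4 at 72 h in LCM. Their medians were -0.27, 0.16, -0.16 and -0.31, against -0.04, 0.06, 0.02 and 0.03 over all tested genes, of which 11.8, 19.5, 13.5 and 17.9% were higher and 11.4, 16.7, 11.4 and 14.6% lower.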

How the data were processed

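Polyadenylated RNA of 36 keratinocyte libraries was read in strand-specific, paired-end runs. For mapping, the authors used HISAT2 2.1.0 and mm39 with the EGFP-PKP4 sequence added, then SAMtools 1.10 to drop secondary alignments and featureCounts 2.0.0 to sum reads over genes (versions from the submitters' processing notes). The strand setting is not given in the sources used here. The deposited table holds raw counts per gene. Groups and replicate numbers came from the labels, which call the libraries biological replicates. The sample titles write LD for the libraries taken as 24 h and HD for those taken as 72 h. One model of all 36 libraries, with a term for each of the 12 groups, was fitted by edgeR 4.0.16 under R 4.3.3 (filterByExpr, TMM scaling, then glmQLFit and glmQLFTest; 24 residual degrees of freedom), and p-values were adjusted by Benjamini-Hochberg over 15114 genes at a threshold of 0.05. Libraries of the same group differed by a chi-square per gene of 7.03 or more, so that none was a copy.

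The members, lists and the rule for naming genes were chosen with earlier results of these data known. The rule gave statistics for up to 5 called members in each direction with the largest fold change and a mean of 1 CPM in a compared group, and for chains that assemble with them; from other lists, up to 4 called genes. Deviations of same-numbered libraries from their group means correlated above 0.1 in every pair in 2 of 24 comparisons, Rescue against PKP4-KO at 72 h in LCM (0.30 to 0.72) and HCM against LCM in WT at 24 h (0.35 to 0.48); the labels name no shared batch. Alternatives were DESeq2 1.42.0, no TMM, no filter, the replicate number as a block and each library left out. The interaction of Rescue and calcium was added after seeing the data. Scripts were tested on simulated data. Positions and sequences came from the GRCm39 reference, in which 98.9% of the 55358 gene identifiers and all 43 members were found.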

Additional observations from a re-analysis of the deposited data

Results flagged for a closer look

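The response to calcium differed from that of WT for 3 collagen genes by the interaction test of edgeR. For Col12a1 at 24 h, the effect of PKP4-KO was larger in HCM than in LCM by 1.43 ± 0.42 on the log2 scale (adjusted p = 0.0498). This call was lost without TMM (1.67, adjusted p = 0.112), without the filter (1.43, adjusted p = 0.0579) and without any of 9 of the 12 libraries (adjusted p = 0.0711 to 0.146). For Col16a1 at 72 h, the effect of PKP4-KO was smaller in HCM by -1.91 ± 0.46 (adjusted p = 0.00962), and this held under every setting tried. For Col12a1 at 72 h, the effect of Rescue was larger in HCM by 2.01 ± 0.43 (adjusted p = 0.00156), which also held throughout. For Col8a1 at 72 h, the effect of Rescue was larger in HCM by 1.35 ± 0.39 (adjusted p = 0.0184), lost without replicate 3 of Rescue or WT in HCM or replicate 2 of either in LCM (adjusted p = 0.0503 to 0.0675). The cause was not tested.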

How the results depend on the processing

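No named change with an adjusted p below 0.05 in the main test or in the other setting reversed its sign. Sign changes of differences that passed in neither were not counted, and fits without an adjusted p were left out. Of the counts of called collagen genes, these moved by more than 1.5 times. Without the filter on low counts, 1 gene was called between HCM and LCM in WT at 24 h (4 in the main test), 1 in Rescue at 24 h (2), 3 over time in WT in HCM (6), 3 in PKP4-KO in LCM (8), 5 in Rescue in LCM (8) and 0 for the PKP4-KO interaction at 24 h (1). Without TMM it was 7 for calcium in PKP4-KO at 72 h (4), 1 in Rescue at 24 h (2), 5 over time in Rescue in LCM (8) and 0 for the interaction (1). With DESeq2 it was 1 for calcium in PKP4-KO at 24 h (0), 4 in Rescue at 24 h (2) and 7 over time in WT in LCM (4). With each library left out, Rescue against WT at 24 h in HCM gave 6 to 9 genes (10). Calcium gave 1 to 3 in WT at 24 h, 0 to 1 in PKP4-KO at 24 h and 2 to 6 in PKP4-KO at 72 h. Time gave 3 to 5 in WT in HCM, 1 to 3 in WT in LCM, 3 to 6 in PKP4-KO in LCM, 4 to 7 in Rescue in HCM and 4 to 6 in Rescue in LCM, and the interactions gave 0 to 1 for PKP4-KO at 24 h and 1 to 2 for Rescue at 72 h. Dropping a library leaves fewer samples, and dropping the filter adds tests; the cause was otherwise not tested.

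Same-numbered libraries of different groups had a median correlation of 0.016 against 0.022 for others, and 9 of 36 were closest to their own number. Every same-numbered pair was above 0.1 in 2 of 24 comparisons, and elsewhere the number was taken as a name. In these 2, the replicate block gave 10 instead of 9 calls for Rescue against PKP4-KO at 72 h in LCM, adding Col7a1, and 4 as without it for calcium in WT at 24 h. With the replicate number as a block, PKP4-KO against WT gave 10, 12, 11 and 13 calls instead of 10, 12, 11 and 14, and no count moved by over 1.5 times. Depth limits many members: 18 of 43 were too low to test, and folds against groups with few reads have wide counting intervals.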
